A study of Mus musculus with 8 samples.

Results

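Invariant natural killer T (iNKT) cells of mouse bone marrow are described here, chosen by their T cell receptor (TCR) alone. A cell was counted as iNKT when its TCR library held an alpha chain (TRA) contig built from TRAV11 and TRAJ18. Its barcode also had to show at least 200 detected genes and at most 15% of its UMIs (unique molecular identifiers, counts of distinct RNA molecules) from mitochondrial genes in the gene expression matrix of the same pool. The rule found 1882 cells among 55850 cells within these limits and among 38247 cells with any TRA contig. No expression value entered the choice.

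The T cells came from C57BL/6 mice that carry the RUNX1::RUNX1T1 fusion of acute myeloid leukemia as a conditional knock-in. The Runx1::Runx1t1 group was Runx1 Runx1t1/+; Mx1-Cre, and the control group was Runx1 Runx1t1/+ without Mx1-Cre, given as wild type in the sample labels. All animals, sex-matched littermates, were injected 4 times with 5 mg/kg of Poly(I:C) and sacrificed 4 weeks later. Poly(I:C) is an RNA mimic that raises interferon, and Mx1-Cre answers to interferon in blood-forming and many other cells, so the recombined cells are not limited to 1 lineage. Live CD3+ cells were sorted without mCherry, the reporter of the fusion, so the T cells described do not themselves express it. Each group had 2 pools of 2 mice, called Runx1::Runx1t1 replicates 1 and 2 and control replicates 1 and 2. The pool was the replicate (n = 2 per group) and single cells were not. In this order the gene expression libraries held 102883449, 100115383, 90958101 and 99869646 UMIs.

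iNKT cells are T cells that recognise lipids presented by CD1d instead of peptides on MHC. In the mouse their alpha chain is nearly always the same TRAV11-TRAJ18 join, while the beta chain varies and mostly uses a few TRBV families. They mature in the thymus under the transcription factor PLZF, encoded by Zbtb16, and divide into NKT1 cells with T-bet and interferon gamma, NKT2 cells with GATA3 and interleukin 4, and NKT17 cells with interleukin 17. Unlike naive T cells they hold cytokine transcripts at rest, and many carry NK receptors such as NK1.1, encoded by Klrb1c.

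The defining markers were present. A Zbtb16 UMI was found in 44.3% and 47.6% of iNKT cells in Runx1::Runx1t1 replicates 1 and 2, and in 33.6% and 33.4% in control replicates 1 and 2. A Klrb1c UMI was found in 73.9% and 57.8% of iNKT cells of the Runx1::Runx1t1 pools and in 76.9% and 74.4% of the control pools. An Il4 UMI was found in 33.3%, 30.2%, 30.8% and 29.01% in the same order. The iNKT cells of the Runx1::Runx1t1 pools were deeper, at medians of 6677.5 and 6513 UMIs against 5619 and 5438.5. These shares are therefore not a comparison of the groups. Over all pools Zbtb16 was seen in 38.0% of iNKT cells and in 1.71% of the other alpha-beta T cells, meaning cells with both a TRA and a TRB contig and without the invariant alpha chain, and Il4 was seen in 30.8% against 0.820%. The median depths of these classes were 5963.5 and 6664 UMIs per cell, and with each cell thinned to 2000 UMIs the Zbtb16 shares were 13.7% and 0.688%. Cells with only the V or only the J segment of the join stayed far below the iNKT cells in both genes. Among 153 cells with TRAV11 joined to another TRAJ, 0.654% had a Zbtb16 UMI and 0 of 153 had an Il4 UMI, which allows a share of up to 1.96%. Among 852 cells with TRAJ18 joined to another TRAV, 3.29% had Zbtb16 and 1.29% had Il4.

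The alpha chain carried the identity of these cells and is shown first. On mouse chromosome 14 the Trav11 segment lies at chr14:53519303-53519859 and Traj18 at chr14:54200777-54200842, both on the plus strand (GRCm38). The 4 commonest CDR3 alpha sequences, from the codon of the conserved cysteine to that of the phenylalanine, differed at 1 base only, and capitals mark bases that belong to neither germline segment.
CDR3 alpha form 1: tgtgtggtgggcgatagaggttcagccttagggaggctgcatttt
CDR3 alpha form 2: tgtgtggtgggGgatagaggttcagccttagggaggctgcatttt
CDR3 alpha form 3: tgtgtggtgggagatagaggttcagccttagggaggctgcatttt
CDR3 alpha form 4: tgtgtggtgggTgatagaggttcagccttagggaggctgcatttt
Germline Traj18: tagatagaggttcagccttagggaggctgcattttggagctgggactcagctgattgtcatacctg

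Form 1 was found in 668 cells (35.5%), form 2 in 555 (29.5%), form 3 in 268 (14.2%) and form 4 in 235 (12.5%), together 1726 cells or 91.7%. The variable base is the last base of codon 4, where every base encodes glycine, so these 4 forms encode 1 peptide. In all, 41 nucleotide forms and 18 protein forms were read. The commonest protein form was written by 14 nucleotide forms and held 1750 cells (93.0%), with 94.1% and 85.3% in Runx1::Runx1t1 replicates 1 and 2 and 94.1% and 93.9% in the control pools. Among the cells of Runx1::Runx1t1 replicate 2 outside this form were 16 of 1 clone (clonotype 1). Of the 1882 CDR3 sequences, 1878 were 45 bases long, and 945 (50.2%) held no base outside the germline segments, 803 (42.7%) held 1, 110 (5.84%) held 2 and 24 held 3 or more. The contig behind each call had between 1 and 24 UMIs (median 5), with 214 contigs under 3, and in 111 cells (5.90%) another TRA contig of the same cell had more UMIs.

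iNKT cells formed a smaller share of T cells in both Runx1::Runx1t1 pools than in both control pools. They were 490 of 10381 cells with a TRA contig in Runx1::Runx1t1 replicate 1 (4.72%, 95% Wilson interval 4.33 to 5.15) and 225 of 9161 in replicate 2 (2.46%, 2.16 to 2.79). In the control group they were 581 of 8979 cells in replicate 1 (6.47%, 5.98 to 7.0) and 586 of 9726 in replicate 2 (6.03%, 5.57 to 6.52). The groups did not overlap. The means were 3.59% ± 1.60 (SD, n = 2) and 6.25% ± 0.315 (SD, n = 2), a difference of -2.66 percentage points with p = 0.3333 by the two-sided exact permutation test, the smallest p that 2 pools against 2 allow (0.489 after adjustment over the 22 comparisons of shares made here, where a raw p of 0.667 became 0.772). With 1 pool left out it ranged from -3.79 to -1.53 points, the latter without Runx1::Runx1t1 replicate 2. The intervals cover counting error only. The sort fixed the number of cells, so a share falls when other T cells expand, and fewer iNKT cells cannot be told apart from more of the others. In Runx1::Runx1t1 replicate 2, 12.8% of the other alpha-beta T cells belonged to a single clonotype of 1118 cells.

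**Figure D1:**
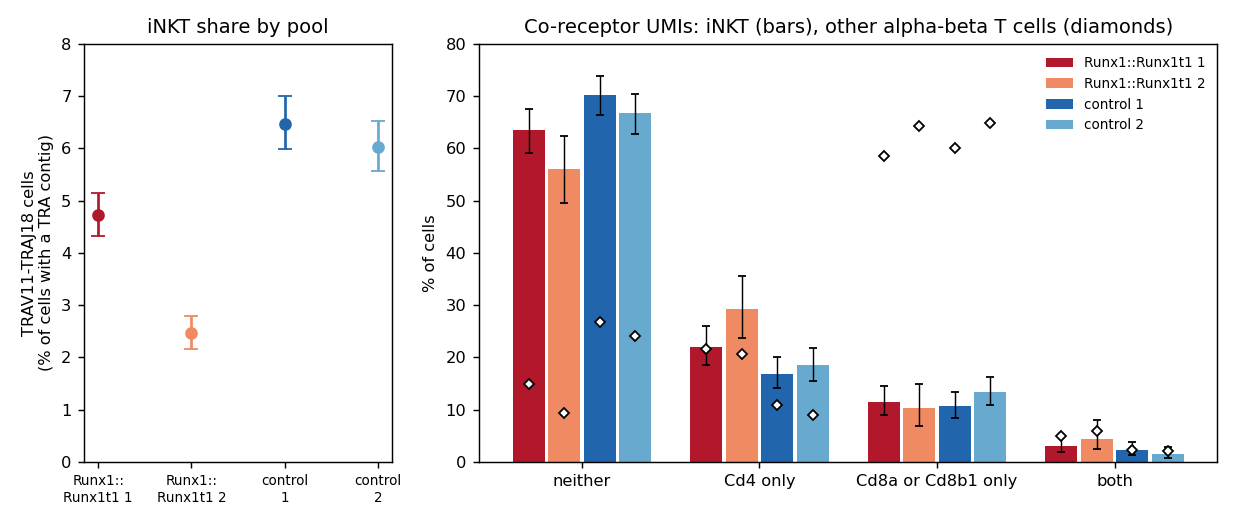
Left, iNKT cells as a percent of cells with a TRA contig in each pool, with 95% Wilson intervals. Right, percent of cells in each co-receptor class by UMIs of Cd4 and of Cd8a or Cd8b1, with bars for iNKT cells and diamonds for other alpha-beta T cells. The control pools lie at 6.47% and 6.03% on the left, and in all 4 pools most iNKT cells had neither co-receptor.

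The beta chains were those known for iNKT cells. TRBV13, TRBV29 and TRBV1 together made up 93.6%, 84.8%, 91.5% and 92.5% of iNKT cells with a TRB contig in Runx1::Runx1t1 replicates 1 and 2 and control replicates 1 and 2, against 33.7%, 38.4%, 32.9% and 35.9% of the other alpha-beta T cells. The TRBV13 family alone was used by 63.3%, 58.9%, 62.6% and 69.5% of iNKT cells, a mean of 63.6% ± 4.37 against 22.7% ± 2.48 (SD, n = 4 pools). This share was 40.9 points higher in the mean and higher in 4 of 4 pools (exact sign-flip permutation test over pools, two-sided p = 0.13, the smallest possible, adjusted p = 0.306). The same smallest p held for every beta chain difference that had 1 direction in all 4 pools.

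Within the TRBV13 family the members were used unequally. TRBV13-2 was read in 882 of 1872 iNKT cells with a beta chain (47.1%), with 44.5%, 44.6%, 45.2% and 52.1% by pool against a mean of 9.91% in other T cells. TRBV13-1 made up 13.3%, 9.82%, 11.96% and 12.7% against 5.93%. TRBV13-3, by contrast, was rarer among iNKT cells, with 5.53%, 4.46%, 5.37% and 4.63% against 6.82%, and was lower in 4 of 4 pools. TRBV29 reached 21.5%, 24.6%, 19.1% and 14.2% of iNKT cells against a mean of 4.63% of others. TRBV1 gave 8.81%, 1.34%, 9.88% and 8.75%. In Runx1::Runx1t1 replicate 2 only 3 of 224 iNKT cells used it, far below the other 3 pools. Of the other T cells of that pool 15.2% did, mostly from the large clonotype, and with each receptor counted once their share was also low, at 1.48% against 5.69%, 5.77% and 5.94% in the other pools. The TRBV1 difference from other T cells (-0.76 points, p = 1.0 by the exact sign-flip permutation test) accordingly had 3 of 4 pools higher. Most TRBV13-2 contigs carried a joint label with TRBV12-2, and all 4559 contigs with the joint label had the CDR1 and CDR2 of TRBV13-2, so they were counted as that segment.

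**Figure D2:**
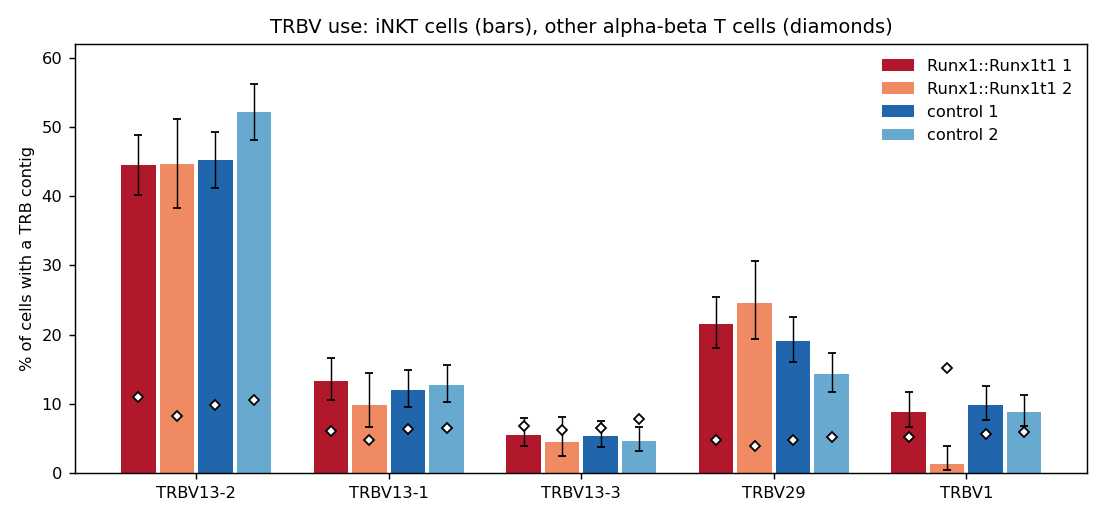
Percent of cells with a TRB contig that used each beta segment, by pool, with bars and 95% Wilson intervals for iNKT cells and diamonds for other alpha-beta T cells. TRBV13-2 and TRBV29 stand above the diamonds in all 4 pools, and TRBV13-3 stands below.

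Between the groups the beta chain shares did not separate beyond what 2 pools against 2 can show. The control group used TRBV13 in 66.0% ± 4.88 of iNKT cells and the Runx1::Runx1t1 group in 61.1% ± 3.10 (SD, n = 2 each), with p = 0.667 by the exact permutation test. With 1 pool left out this difference of -4.89 points ranged from -8.34 points, without control replicate 1, to -1.44 points, without control replicate 2, and it was -2.70 points without Runx1::Runx1t1 replicate 2. TRBV29 made up 23.0% ± 2.15 of the Runx1::Runx1t1 group against 16.7% ± 3.41 of the controls, without overlap (difference 6.38 points, exact permutation p = 0.3333). With 1 pool left out this difference ranged from 3.97 points, without control replicate 2, to 8.80. Klrb1c shares were alike in TRBV13-2 and TRBV29 iNKT cells. By pool they were 74.7%, 65.0%, 77.8% and 76.3% for TRBV13-2 and 74.3%, 69.1%, 78.2% and 81.9% for TRBV29. Other markers varied more between beta segments. In control replicate 2, Zbtb16 was seen in 37.8% of TRBV13-2 cells, 16.2% of 74 TRBV13-1 cells and 51.9% of 27 TRBV13-3 cells. Differences of markers between beta segments were not tested. In Runx1::Runx1t1 replicate 2, 29.4% of 34 iNKT cells with a TRBV outside the 3 families had Klrb1c, a set that includes the clone of 16 cells.

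Almost every iNKT cell had a beta chain of its own. The 1872 cells with a TRB contig held 1811 distinct TRB CDR3 sequences, of which 4 (0.221%) occurred in more than 1 pool. Cells in clonotypes of 2 or more cells were 2.66% and 11.2% of iNKT cells in Runx1::Runx1t1 replicates 1 and 2 and 2.08% and 4.80% in the control pools. Among the other alpha-beta T cells of the same pools these shares were 29.5%, 42.9%, 11% and 13.4%. Such a share rises with the number of cells read, which was 224 to 583 iNKT cells and 8244 to 9688 other cells per pool. The classes were therefore not compared by it. The group difference of 3.47 points (exact permutation p = 0.667) is 1 of the 22 comparisons of shares and is subject to the same limit. The largest iNKT clonotypes held 3, 16, 2 and 13 cells.

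The pair of clonotypes above 10 cells is shown, as the largest among iNKT cells.
Clonotype 1, alpha: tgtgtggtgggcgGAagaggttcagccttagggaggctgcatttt
Clonotype 1, beta (TRBV5, TRBJ2-5): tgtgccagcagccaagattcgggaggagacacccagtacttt
Clonotype 2, beta (TRBV13-2, TRBJ2-1): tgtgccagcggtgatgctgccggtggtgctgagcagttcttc

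Clonotype 1 held 16 cells of Runx1::Runx1t1 replicate 2. Its alpha chain is a rare form with 2 bases of neither segment, and its beta chain uses TRBV5, which 35 iNKT cells used in all. A Klrb1c UMI was found in 0 of its cells, which by counting error alone allows up to 18.8% of cells with a UMI, and Zbtb16 in 1 and Il4 in 1, while Ccl5, a chemokine of memory and effector T cells, was in all 16 and Cd4 in 10. Clonotype 2 held 13 cells of control replicate 2, with the form 2 alpha chain and a TRBV13-2 beta chain, and Klrb1c was found in all 13, Zbtb16 in 3 and Il4 in 0, which likewise allows up to 23.1%. Cells of 1 clone are not independent. All 13 cells lay in the transcript cluster described below as cluster 5, at a median of 4232 UMIs.

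Most iNKT cells had no detected co-receptor transcript. Neither Cd4 nor Cd8a or Cd8b1 was seen in 63.5% and 56.0% of iNKT cells in Runx1::Runx1t1 replicates 1 and 2 and in 70.2% and 66.7% in control replicates 1 and 2, a mean of 64.1% ± 6.07 against 18.8% ± 8.10 in other T cells (SD, n = 4). This was higher in 4 of 4 pools (exact sign-flip permutation p = 0.13, adjusted 0.306). With every cell thinned to 2000 UMIs the shares were 85.7%, 79.0%, 85.7% and 83.8%, against 33.5%, 24.6%, 43.3% and 40.5%, with 18 iNKT and 317 other cells left out as too shallow. Absence of a UMI at this depth does not show absence of the protein.

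Cd4 without Cd8 was found in 22.0%, 29.3%, 16.9% and 18.4% of iNKT cells, a share that was higher in both Runx1::Runx1t1 pools (25.7% ± 5.16 against 17.6% ± 1.10, SD, n = 2 each, exact permutation p = 0.3333). The iNKT cells of these pools were also deeper, at medians of 6677.5 and 6513 UMIs against 5619 and 5438.5, and after thinning the shares were 7.45% and 13.8% against 7.65% and 8.08%, so the groups overlapped. Without Runx1::Runx1t1 replicate 2 the unthinned difference of 8.04 points was 4.39. The excess of Cd4 without Cd8 over other T cells of 6.19 points was gone after thinning (-0.97 points, exact sign-flip permutation p = 0.875). Cd8 without Cd4 was found in 11.4%, 10.2%, 10.7% and 13.3% of iNKT cells against a mean of 61.9% of others. Cd8 UMIs were more frequent in cells with 2 TRB contigs. Any Cd8 UMI was seen in 9.23% of 1592 iNKT cells with 1 TRB contig and in 42.5% of 280 with 2, whose median depths were 5732.5 and 9919 UMIs. A second TRB contig was found in 14.5%, 12.1%, 16.3% and 15.1% of iNKT cells against 8.84%, 7.88%, 10.6% and 9.75% of others, and the doublet caller Scrublet marked 5.71%, 2.67%, 8.26% and 8.70% against 3.91%, 1.95%, 4.99% and 5.34%. Doublets were kept in the main counts, and results without cells of over 1 TRB or over 2 TRA contigs are given with the alternatives.

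Clustered on their own transcripts without TCR genes, the iNKT cells fell into 9 clusters, numbered 0 to 8. Names were given only where at least 3 markers of a subset list were raised and no other subset or cell type list had more markers among the 10 leading genes by fold, a rule set after the data had been seen. The lists of NK receptor genes and of naive T cell genes did not enter it, and NK receptor genes such as Klrc2, Klrc1 and Klra1 in cluster 4 and Klra5 and Klra9 in cluster 6 were among the leading genes of named clusters. Clusters 4 and 6 were NKT1-like and together held 522 cells (27.7%), a share that depended on the clustering and lay between 29.8% and 49.9% in 10 alternatives (those with a pool left out included), for example 49.9% at resolution 0.4 and 45.2% without centering. Cluster 4 (391 cells) was raised in Xcl1, the chemokine lymphotactin, Il2rb, a subunit of the interleukin 2 and 15 receptors, and the NK receptor genes Klrk1, Klrd1 and Klre1. Cluster 6 (131 cells) added the granzyme genes Gzma and Gzmb, and Gzmb was seen in 68.7% of its cells. By this rule Tbx21, the gene of T-bet, was raised in neither cluster, and Ifng was raised in cluster 6 but not in cluster 4. Tbx21 was seen in 55.8% and 59.5% of cells of clusters 4 and 6. Unnamed clusters 1, 2, 5 and 7 had 54.6%, 56.2%, 56.6% and 55.6%. Ifng was seen in 58.8% of cells of cluster 4, against 78.3%, 61.9%, 62.9% and 72.2% in those unnamed clusters. Clusters 0, 3 and 8 had lower shares of both genes. The name of cluster 4 therefore does not rest on T-bet or interferon gamma. NKT1-like cells made up 28.4%, 26.2%, 28.9% and 26.6% of iNKT cells by pool, a group difference of -0.47 points (exact permutation p = 0.667). Cluster 7 had 4 NKT1 markers raised (Ifng, Ccl5, Nkg7 and Fasl) but stayed unnamed, because its leading genes held none of that list and held Eomes, a marker on the NK cell list. With cluster 7 counted as NKT1-like, a choice made after seeing the data, the shares were 33.3%, 41.3%, 30.8% and 33.3% and the group difference turned to 5.26 points (exact permutation p = 0.667).

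Cluster 3 was NKT17-like and held 64 cells (3.40%). Of the 13 listed markers 11 were raised in it, among them Il23r, an interleukin 23 receptor subunit, in 26.6% of its cells, Ccr6 in 28.1% and Tmem176b in 71.9%. A Klrb1c UMI was found in 28.1% of these cells, against 73.1% of all iNKT cells. Their share was 3.88% and 4.89% in the Runx1::Runx1t1 pools and 3.27% and 2.56% in the control pools (4.38% ± 0.715 against 2.91% ± 0.502, SD, n = 2 each, exact permutation p = 0.3333), without overlap. After adjustment over both subsets p was 0.667 for each. With Runx1::Runx1t1 replicate 1 left out the NKT17-like difference was 0.11 points. Runx1::Runx1t1 replicate 2, at 3.11%, then lay between the control pools at 2.75% and 3.24%. In this clustering no cluster met the rule for NKT2-like cells, although Il4 was among the 10 leading genes of cluster 1, below Tnf and the interferon-induced genes Ifit1 and Isg15. The rule named an NKT2-like cluster in 2 alternatives, of 32 cells without Scrublet doublets and of 15 without cells of several contigs, both by Ccr7, Lef1 and Il6ra. The leading genes of both also held Dapl1, Igfbp4, Cd8a and Cd8b1, genes of naive and CD8+ T cells, so they are not described as NKT2 cells. It named an interferon-like cluster of 19 to 162 cells in 7 of 10.

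The other clusters stayed unnamed. Cluster 0 (391 cells) was led by Ly6c1 and Ccr9, the latter a gut-homing chemokine receptor, and clusters 1 (295 cells) and 2 (210 cells) shared Tnf and Gadd45b among their leading genes. Cluster 5 (272 cells) had Ccr7, Cd8b1 and Dapl1, genes of naive and CD8+ T cells, among its leading genes. In this cluster 56.3% of cells had 2 TRB contigs, 40.4% were marked by Scrublet, and the median depth was 10208.5 UMIs. It made up 11.2% and 9.33% of iNKT cells in the Runx1::Runx1t1 pools and 16.4% and 17.2% in the control pools. Cluster 7 (108 cells) was led by Gzmk, with Klrg1 and Eomes further down its 10 leading genes, and Cd4 was seen in 43.5% of its cells. It made up 4.90%, 15.1%, 1.89% and 6.66% of the pools, and 15 of the 16 cells of clonotype 1 lay in it.

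**Figure D3:**
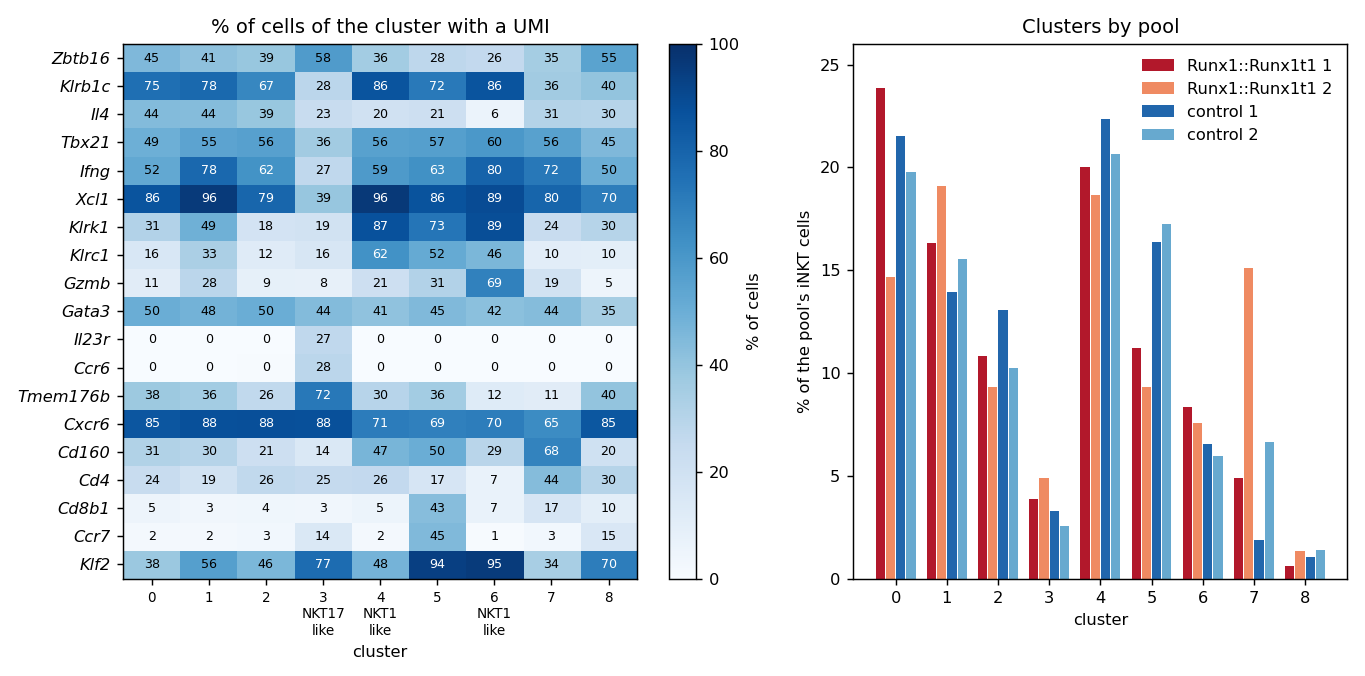
Left, percent of the cells of each of the 9 iNKT clusters with a UMI of a marker gene, darker for a higher share. Right, percent of the iNKT cells of each pool that fell in each cluster. Tmem176b was seen in 71.9% of cells of cluster 3, and the NKT1-like clusters 4 and 6 have similar shares in the 4 pools.

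iNKT cells differed widely from the other alpha-beta T cells of the same pools. UMIs were summed per pool and class, and edgeR's quasi-likelihood test was run with a block per pool. Of 13260 genes tested, 1991 (15%) were higher and 2159 (16.3%) were lower in iNKT cells at an adjusted p under 0.05. The values below are UMI counts scaled to 1000000 per pool and class (CPM), and fold changes are on the log2 scale.

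Il4, the cytokine of type 2 help, had the largest rise among the genes named by rule. It stood at 91.8, 74.9, 78.9 and 80.8 CPM in iNKT cells of Runx1::Runx1t1 replicates 1 and 2 and control replicates 1 and 2, and at 3.94, 1.48, 0.812 and 1.46 CPM in other T cells. The log2 fold change was 5.37 ± 0.230 (SE, adjusted p = 6.72e-09). Zbtb16 stood at 95.8, 106, 73.5 and 75.8 CPM against 3.55, 3.48, 4.03 and 3.17 (log2 fold change 4.47 ± 0.121, adjusted p = 1.52e-10). No iNKT value overlapped with a value of the other T cells for either gene.

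The other 8 of the 10 highest were Sulf2, an extracellular sulfatase (4.60), Mmp9, a matrix metalloprotease (4.44), Ckb, the brain type creatine kinase (4.36), Zfp683, the gene of the tissue residency factor Hobit (4.14), Tmem273 (4.11), the keratin Krt83 (3.79), Anxa1, encoding annexin A1 (3.70), and Ly6g5b (3.64). Ckb was the most even of them, at 207, 221, 229 and 208 CPM in iNKT cells and 10.2, 9.69, 9.47 and 8.97 CPM in others. Zfp683 stood at 107, 151, 116 and 121 CPM against 7.93, 4.06, 5.37 and 7.88. Mmp9 stood at 117, 149, 102 and 124 CPM against 4.39, 4.90, 5.08 and 5.97. All were higher in 4 of 4 pools, which the naming rule required.

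The 10 lowest named by rule were Lag3, an inhibitory receptor (-4.29), Cd8a (-3.40), Cd8b1 (-3.36), Dapl1 (-3.21), the granzyme Gzmk (-3.18), Ccr7, the lymph node homing receptor (-2.92), Cd55 (-2.90), Foxp3, the factor of regulatory T cells (-2.89), Adgrg1 (-2.86) and Gzmm (-2.80). Ccr7 stood at 53.6, 64.9, 62.4 and 60.3 CPM in iNKT cells against 475, 501, 386 and 327 in others. Lag3 stood at 4.54, 3.15, 1.89 and 1.39 CPM against 70.6, 182, 14.7 and 6.32. Its CPM in other T cells were higher in the Runx1::Runx1t1 pools, but the interaction test described below did not call Lag3.

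**Figure D4:**
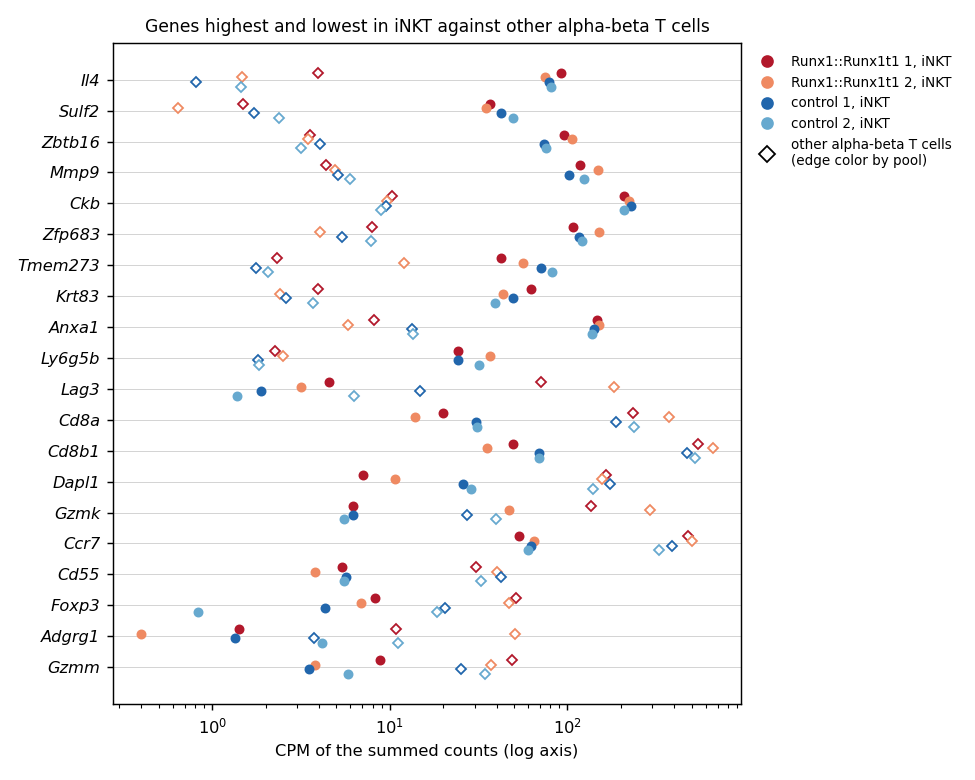
CPM of the 20 genes named by rule in iNKT cells and other alpha-beta T cells, on a log axis, with 1 point per pool. Values below 0.4 CPM are drawn at 0.4. The 10 upper genes show no overlap between the classes, and Il4 lies between 74.9 and 91.8 CPM in the 4 iNKT pools.

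The lists of subset genes mostly ran higher in iNKT cells for NKT1, NKT2 and NKT17. Of 14 NKT1 genes tested, 10 were higher and 2 lower, with a median log2 fold change of 0.91 against -0.02 for all genes tested. Ifng rose from 99.1, 129, 78.3 and 101 CPM in other T cells to 251, 365, 280 and 344 in iNKT cells (1.48 ± 0.067, adjusted p = 9.03e-09), Tbx21, the gene of T-bet, by 0.98 and Il12rb2, an interleukin 12 receptor subunit, by 2.64. Gzma and Ccl5 were the pair that fell. Of 11 NKT2 genes, 8 were higher and 3 lower (median 0.83), with Il17rb, a receptor for interleukin 25, at 4.14, Il13 at 2.75 and Gata3 at 0.83, while Ccr7, Il6ra and Lef1, which naive T cells also use, fell. Of 13 NKT17 genes, 7 were higher and 1 lower (median 1.0). Tmem176b rose by 2.79 and Il23r by 1.66 (adjusted p = 0.00375), whereas Il17a had -0.64 (adjusted p = 0.384).

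Of 7 genes of follicular helper NKT cells, 5 were lower and none higher (median -2.65), among them Cxcr5 (-2.65) and Pdcd1 (-2.44). Of 10 cell cycle genes, 9 were lower (median -1.43), with Mki67 at 4.54, 5.04, 5.67 and 17.2 CPM against 31.1, 38.3, 9.62 and 18.3. Naive T cell genes were lower in 9 of 11 (median -2.07), including Tcf7 (-1.65) and the egress receptor S1pr1 (-2.07). Only Satb1 of that list rose.

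NK receptor genes were higher in 13 of 20 and lower in 4 (median 0.90). Klrb1c rose by 2.73 and the inhibitory Ly49 gene Klra9 by 2.54, and the 4 that fell were Cd244a, Klra6, Klrg1 and Klra7. Of 20 transcription factor genes 10 rose, with Zbtb7b (ThPOK, the CD4 lineage factor) at 1.83 and Id2 at 1.58, and 7 fell, with Eomes at -2.55 and Klf2 at -1.74. Of 16 homing genes 7 rose, led by Cxcr6 (2.55) and Itga1 (2.31), which mark tissue residence, and 7 fell, among them the residence genes Itgae (-1.14) and Cd69 (-0.20, adjusted p = 0.0495, lower in 3 of 4 pools). Cytokine genes rose in 8 of 16, with Csf2 at 2.39, and fell in 6, namely Il10, Il21, Ccl4, Ccl3, Ccl5 and Lta (median 0.11). Of 17 costimulatory and inhibitory genes 10 fell and 6 rose (median -0.78). Cd40lg, a T cell help ligand, was among those that rose, by 2.50. Interferon-induced genes rose in 8 of 12 (median 0.52), with Ifit1 at 1.17 and Isg15 at 0.81. The constant genes of the gamma chain, Tcrg-C1, Tcrg-C2 and Tcrg-C4, also rose, and the 5 listed gamma-delta genes summed to 101, 124, 109 and 93.0 CPM in iNKT cells against 20.2, 30.1, 34.5 and 33.3.

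Both classes were also compared among cells with a Klrb1c UMI, which narrows the other T cells to those with NK1.1 transcripts. Of 9890 genes tested, 1353 (13.7%) were higher and 1463 (14.8%) were lower in iNKT cells by edgeR. Of the genes higher in the first comparison, 1118 were also higher here, which is 56.2% of the first list and 82.6% of the second.

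Zbtb16 stood at 88.4, 92.0, 69.8 and 70.4 CPM in Klrb1c+ iNKT cells against 16.5, 10.1, 9.0 and 6.89 in other Klrb1c+ T cells, a log2 fold change of 2.81 ± 0.120 (adjusted p = 2.35e-11). Among the genes named by rule Il4 was again the highest, with 81.2, 77.2, 82.6 and 78.8 CPM against 3.09, 4.03, 1.93 and 2.54 (4.83). It was followed among them by Tmem273 (3.74), Ckb (3.50), Ly6g5b (3.48), Ly6c1 (3.31), Krt83 (3.13), Sulf2 (3.0), Mmp9 (2.95) and Ccr9 (2.94). Cd4 rose in this comparison, at 43.8, 65.5, 41.0 and 44.7 CPM against 25.6, 21.1, 11.6 and 9.80 (1.46 ± 0.164, adjusted p = 3.02e-06).

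Among the lowest genes named by rule were Cym (-3.60), Klrb1a (-3.48), Crtam (-3.39), Olfm1 (-3.33), Kifc3 (-3.19), Eomes (-3.17), Cd244a (-3.01), Klra6 (-2.90) and Gzmm (-2.88). The NK receptor list had 4 genes higher and 11 lower of 20 (median -0.53 against 0.00 for all genes tested). Klrb1c, by which both classes were chosen here, is 1 of these 20 and of the 4 (0.40). Tyrobp, the adaptor DAP12, stood at 48.7, 61.3, 96.8 and 67.8 CPM against 238, 285, 415 and 318 (-2.32), and Fcer1g, another signaling adaptor of NK receptors, fell by 1.57 on the log2 scale. Of 11 cytotoxic genes 6 were lower and only Fasl was higher. Ifng (1.03), Zfp683 (2.80) and Cxcr6 (2.76) remained higher. Interferon-induced genes were higher in 10 of 12, with a median of 0.71.

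Within iNKT cells, few genes differed between the groups. Of 9811 genes tested, 43 (0.438%) were higher and 28 (0.285%) were lower in the Runx1::Runx1t1 group by edgeR on the 4 pool sums. The defining genes were not among them. Zbtb16 stood at 95.8 and 106 CPM against 73.5 and 75.8 (0.44 ± 0.093, adjusted p = 0.0511), Klrb1c at 298 and 253 CPM against 366 and 380 (-0.41, adjusted p = 0.136) and Il4 at 91.8 and 74.9 CPM against 78.9 and 80.8 (0.12, adjusted p = 0.807). Tbx21 had -0.14 and Ifng -0.03, both short of the threshold. The number of calls varied with the method. DESeq2 called 19 genes higher and 12 lower, and edgeR without the filter on low counts called 140 and 108.

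The largest rise by fold was that of Cpa3, given further on. Tnfrsf4, the costimulatory receptor OX40, stood at 23.2 and 25.8 CPM in the Runx1::Runx1t1 pools against 5.13 and 6.67 in the control pools (2.05 ± 0.243, adjusted p = 0.00152). Ctla4, an inhibitory receptor, stood at 62.9 and 66.1 CPM against 27.6 and 17.5 (1.53 ± 0.183, adjusted p = 0.00152). Gzmb stood at 193 and 149 CPM against 34.3 and 75.3 (1.69 ± 0.239, adjusted p = 0.00519), with a UMI in 39.0% and 27.6% of iNKT cells against 11.53% and 18.8%. The groups' pools did not overlap for these 3 genes, which the naming rule required. The other T cells of the same pools had values in the same order, with Tnfrsf4 at 146 and 139 CPM against 42.1 and 27.5, Ctla4 at 211 and 260 CPM against 96.4 and 62.2, and Gzmb at 118 and 201 CPM against 25.5 and 48.3. Ccr8 (1.99), Gzma (1.45), Eomes (1.44), Rgs16 (1.25), Tgif2 (1.07) and the actin-capping gene Capg (0.92) were the other genes named by rule, beside Cpa3. Of these 10 genes Ctla4, Capg and Cpa3 were called in all alternatives and the other 7 were lost in at least 1, Eomes with 1 cell per clonotype.

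Of the listed groups, 4 of 16 costimulatory and inhibitory genes were higher (Tnfrsf4, Ctla4, Icos and Nr4a3; median 0.33 against 0.00 for all genes tested), 2 of 14 NKT1 genes (Gzmb and Gzma), 2 of 11 NKT2 genes (Icos and Izumo1r) and 2 of 20 transcription factor genes (Eomes and Bhlhe40). None of 12 interferon-induced genes, 10 NKT17 genes, 16 homing genes, 16 cytokine receptor genes or 13 cytokine genes passed. Of 20 NK receptor genes only Tyrobp passed, at 42.5 and 39.7 CPM against 88.6 and 75.3 (-0.96, adjusted p = 0.0028), and without cells holding 2 or more myeloid UMIs it was no longer called by edgeR (-0.57, adjusted p = 0.0961).

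The 10 lower genes named by rule were Lyz2 (-6.55), S100a8 (-6.33), Chil3 (-5.54), Dapl1 (-1.69), Ccr9 (-1.12), Tyrobp (-0.96), Clec2d (-0.74), Lars2 (-0.67), Tmem273 (-0.66) and Hmgn1 (-0.64). Another 8 of the 28 lower genes, among them the myeloid genes Cybb, Ccl6, Ccl9, Hp and Cd14, had no UMI in either Runx1::Runx1t1 pool. Of the 10, Lyz2 and Lars2 were called in all alternatives. Chil3 was not among the genes called without cells holding 2 or more myeloid UMIs, and the other 7 were lost in at least 1 alternative. Ccr9 stood at 13.6 and 13.9 CPM against 35.9 and 24.7, and Dapl1, found mainly in naive T cells, at 7.09 and 10.7 CPM against 25.9 and 28.6. Dapl1 was no longer called by edgeR without Scrublet doublets (-0.82, adjusted p = 0.522) or without cells of over 1 TRB or over 2 TRA contigs (-1.03, adjusted p = 0.322), and cluster 5, which holds many such cells, was smaller in the Runx1::Runx1t1 pools. The first 3 are genes of myeloid cells. Lyz2, the lysozyme of macrophages and granulocytes, stood at 1.98 and 1.26 CPM against 219 and 124 in iNKT cells and at 18.5 and 2.63 CPM against 181 and 72.3 in other T cells of the same pools, and 1 cell in each of control replicates 1 and 2 held 419 of 811 and 389 of 445 Lyz2 UMIs. Of the 460 S100a8 UMIs of control replicate 1, 406 came from 1 cell. The 7 listed myeloid markers summed to 8.22 and 9.45 CPM in iNKT cells of the Runx1::Runx1t1 pools and to 521 and 150 CPM in the control pools. Without cells holding 2 or more myeloid UMIs, 13 of the 28 lower genes and 38 of the 43 higher genes were still called. Chil3 had 2 UMIs over the Runx1::Runx1t1 pools and 148 over the control pools, a ratio of 51.9 with a counting interval of 14.1 to 432. Such an interval takes each UMI as independent and covers neither cells nor pools. In control replicates 1 and 2, 1 cell each held 38 of 71 and 74 of 77 Chil3 UMIs.

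Cpa3, a mast cell and progenitor protease gene, followed the groups in the opposite direction. It stood at 34.0 and 15.1 CPM against 0.540 and 0.278 in iNKT cells (5.92 ± 0.569, adjusted p = 0.000304), with 144 UMIs against 3, a ratio of 68.5 with a counting interval of 23.0 to 336. It was seen in 59 and 20 iNKT cells of the Runx1::Runx1t1 pools and in 2 and 1 of the control pools, and 1 cell held 49 of the 120 UMIs of Runx1::Runx1t1 replicate 1. The other T cells of the same pools stood at 60.6 and 72.1 CPM against 0.207 and 0.385. The part of RNA from other cells in the Cpa3 and Lyz2 values was not tested.

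**Figure D5:**
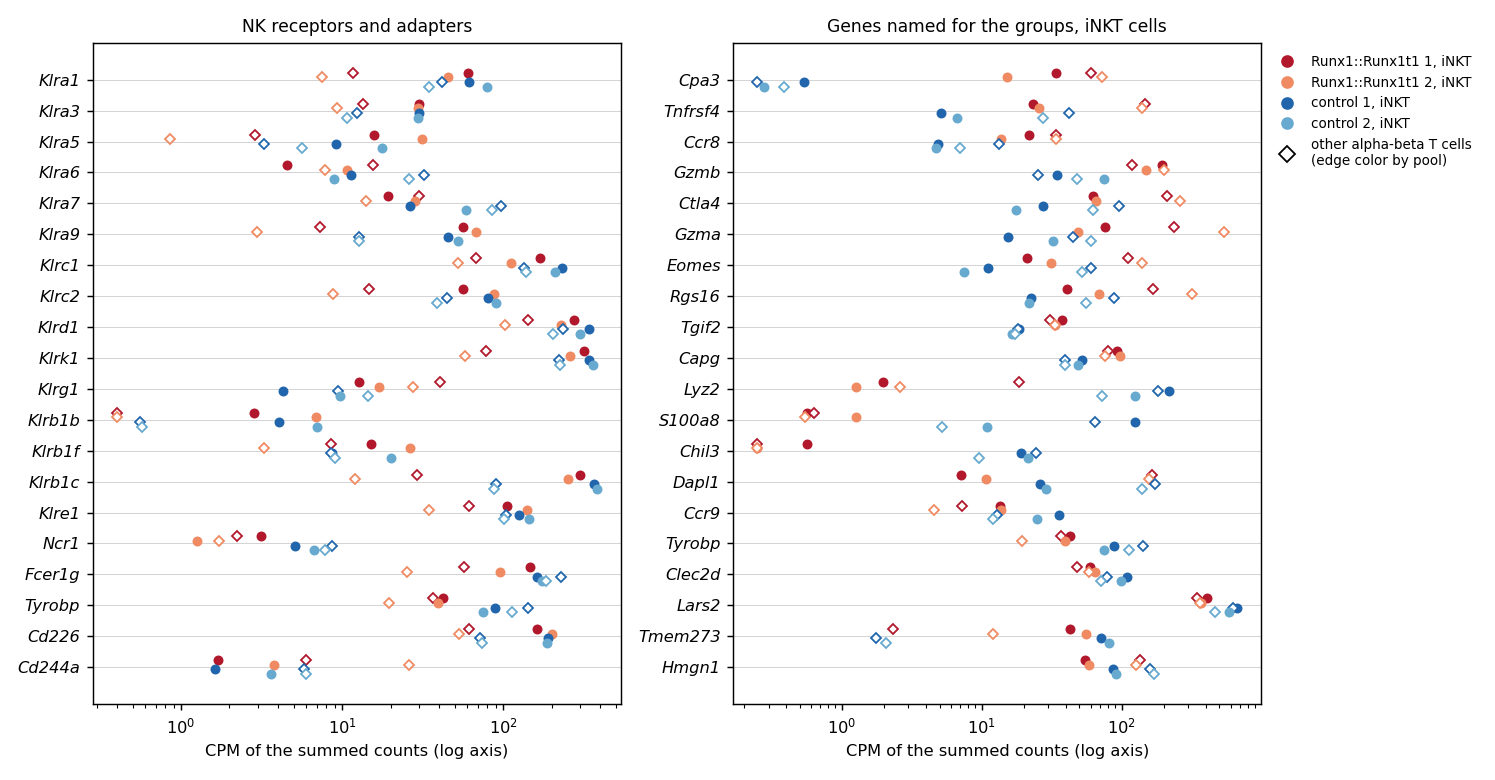
CPM in iNKT cells and other alpha-beta T cells of each pool on log axes, filled points for iNKT cells and open diamonds for the others. NK receptor and adapter genes are on the left, where values below 0.4 CPM are drawn at 0.4, and genes named for the group difference in iNKT cells are on the right, where values below 0.25 CPM are drawn at 0.25. For Klrb1c the Runx1::Runx1t1 pools lie below the control pools in both classes, by less in iNKT cells, where all pools lie between 253 and 380 CPM.

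The group difference was not the same in iNKT cells and in the other T cells for a set of genes. An interaction term in edgeR over the 8 sums called 423 of 13260 genes, 215 (1.62%) with a more positive group difference in iNKT cells and 208 (1.57%) with a more negative one.

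Of the NK receptor list, 11 of 20 genes were more positive in iNKT cells and none more negative (median 1.05 against -0.02 for all genes tested). Klrb1c stood at 29.1 and 12.01 CPM in other T cells of the Runx1::Runx1t1 pools against 90.3 and 87.6 in the control pools, while iNKT cells held 298 and 253 against 366 and 380 CPM (interaction 1.79 ± 0.145, adjusted p = 6.76e-11). Klrk1, the gene of NKG2D, stood at 78.0 and 57.8 CPM against 223 and 225 in other T cells, and at 316 and 261 CPM against 340 and 360 in iNKT cells (1.53 ± 0.083, adjusted p = 8.23e-16). In both genes the groups were far apart in other T cells and near each other in iNKT cells. Fcer1g (1.91) and Il12rb2 (1.42) were likewise lower in the Runx1::Runx1t1 pools by more in other T cells than in iNKT cells. Klra5 (2.10) stood at 15.9 and 31.5 CPM against 9.19 and 17.8 in iNKT cells and at 2.88 and 0.855 CPM against 3.28 and 5.65 in other T cells. Of the 11 genes, 5 passed in all 13 alternatives and leave-one-out fits.

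Cell cycle genes went the other way, with 8 of 10 more negative in iNKT cells and none more positive (median -2.26). DESeq2 called 0 of the 10 in this interaction, but it gave no adjusted p for 18749 of 20147 genes. Mki67, a marker of dividing cells, stood at 31.1 and 38.3 CPM in other T cells of the Runx1::Runx1t1 pools against 9.62 and 18.3 in the control pools, and at 4.54 and 5.04 CPM against 5.67 and 17.2 in iNKT cells (-2.44 ± 0.313, adjusted p = 1.59e-06). Of 17 costimulatory and inhibitory genes 7 were more negative and 1 more positive. Pdcd1, encoding PD-1, stood at 37.1 and 96.0 CPM against 11.4 and 6.17 in other T cells and at 5.95 and 8.19 CPM against 5.13 and 3.61 in iNKT cells (-1.97, adjusted p = 0.000496), and Tigit had -1.65. Cxcr6 in iNKT cells overlapped between the groups (318 and 490 CPM against 393 and 432), whereas in other T cells the Runx1::Runx1t1 pools were higher (58.5 and 184 CPM against 31.7 and 46.7, interaction -1.40, adjusted p = 9.26e-08). None of the 12 interferon-induced genes differed in this way at the threshold. The large clonotype of Runx1::Runx1t1 replicate 2 entered these sums, and with 1 cell per clonotype and pool 161 genes were called, 132 of them shared with the 423.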

How the data were processed

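Single-cell 5′ gene expression and TCR libraries of 4 pools (8 libraries) were used, grouped by the sample labels. The authors' deposited matrices hold raw UMI counts of 32285 genes per barcode called by Cell Ranger 6.1.2 on GRCm38, and the deposited contig tables hold the UMI count of each contig. The annotation release is not given in the sources used here. Pools held 90958101 to 102883449 UMIs, and 256 to 306 barcodes were shared between any pair of pools, so joins were made within a pool.

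The limits on barcodes were 200 genes or more and 15% mitochondrial UMIs or less. No doublets were removed in the main values. Scrublet's automatic threshold worked in 1 pool, and elsewhere the top 5% of scores were taken for its alternative. Shares carry 95% Wilson intervals, with 3 counts as the limit of a count of 0. Shares were tested by exact permutation over pools, two-sided, which cannot go below 0.3333 (groups) or 0.13 (4 pairs of classes). A clonotype was a pair of alpha and beta CDR3 nucleotide sequences. iNKT cells were clustered in scanpy 1.11.5 (2000 variable genes without TCR, immunoglobulin, ribosomal and mitochondrial genes, centered within pools, 30 principal components, 15 neighbors, Leiden resolution 0.8). A cluster name needed 3 markers with a mean log difference of 0.25 or more in 10% or more of its cells, and no other subset or cell type list with more markers among its 10 leading genes by fold.

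UMIs were summed per pool and class and tested by edgeR 4.0.16 (quasi-likelihood, TMM, filterByExpr, Benjamini-Hochberg at 0.05), with DESeq2 1.42.0 as an alternative. The fits were tested on simulated data. Genes were named by rule as the 10 highest and 10 lowest by log2 fold change among those past the threshold, with a mean of at least 10 CPM and the same direction in every pool or no overlap between groups, without genes of the TCR and immunoglobulin loci, Gm, Rik and mitochondrial genes. Members of gene lists were counted in full, and values of some of these genes are not reported here. The cells, gene lists and tests were chosen with earlier results of these data known. Segment sequences and positions were read from GRCm38.p6 with GENCODE M21. Each pool mixed the marrow of 2 mice, so p-values measure the spread between pools and not between single animals.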

Additional observations from a re-analysis of the deposited data

Results flagged for a closer look

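The group difference (Runx1::Runx1t1 minus control) differed between iNKT cells and other alpha-beta T cells for 423 genes by the edgeR interaction test. Values below are this interaction on the log2 scale, and each passed an adjusted p under 0.05.

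Among NK receptor and adaptor genes the interaction was 2.10 for Klra5, 1.91 for Fcer1g, 1.79 for Klrb1c, 1.71 for Klra9, 1.63 for Klra1, 1.57 for Klrc2, 1.53 for Klrk1, 1.19 for Tyrobp, 0.97 for Klre1, 0.64 for Klrc1 and 0.56 for Klrd1. Of these 11 genes, Fcer1g, Klrb1c, Klrk1, Klrc1 and Klrd1 passed in all 13 alternatives and leave-one-out fits, and Klra5 in 10.

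Among cell cycle genes it was -3.24 for Pclaf, -3.07 for Cdk1, -3.04 for Ccna2, -3.03 for Birc5, -2.44 for Mki67, -2.08 for Stmn1, -1.44 for Hist1h1b and -1.03 for Top2a. In this interaction DESeq2 gave no adjusted p for 18749 of 20147 genes. DESeq2 called 0 of the 10 cell cycle genes, while the other 12 alternatives and leave-one-out fits called between 5 and 9, all more negative in iNKT cells.

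Among genes named for the group difference within iNKT cells it was -3.35 for Lyz2, -2.06 for Tmem273, -1.69 for Dapl1 and -1.10 for Gzma. In other T cells Tmem273 and Gzma were highest in Runx1::Runx1t1 replicate 2. Tmem273 stood there at 2.31 and 12.1 CPM in the Runx1::Runx1t1 pools against 1.76 and 2.06 in the control pools, and Gzma at 238 and 541 against 45.1 and 60.7. In control replicate 1 a single iNKT cell held 419 of 811 Lyz2 UMIs, and Lyz2 was still called between the groups without cells holding 2 or more myeloid UMIs.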

How the results depend on the processing

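Directions of the share differences between iNKT and other T cells held under all alternatives but those of TRBV1 and Cd4. TRBV1 (main -0.76 points) turned to 2.61 with each receptor counted once and to 3.61 without Runx1::Runx1t1 replicate 2 (-2.44 to 3.61 with 1 pool left out). Cd4 only turned to -0.97 after thinning. Group differences near 0 turned sign. Cd8 only (main -1.17 points) became 1.73 without Scrublet doublets, 2.18 without cells of over 1 TRB or over 2 TRA contigs, and 0.15 without control replicate 2 (-2.49 to 0.15). TRBV13-3 (main -0.00338 points) became 0.65 with contigs of 3 or more UMIs, 0.38 without Scrublet doublets, 0.86 without cells of several contigs, 0.14 with each receptor counted once, 0.53 without Runx1::Runx1t1 replicate 2 and 0.37 without control replicate 1 (-0.54 to 0.53). TRBV13-1 became 0.15 with each receptor counted once and 0.99 without Runx1::Runx1t1 replicate 2 (-2.50 to 0.99). The NKT1-like share became 0.41 at resolution 0.4, 1.64 without centering, 0.69 without Scrublet doublets and 5.26 with names given by 3 raised markers alone (chosen after seeing the data), and ranged from -9.13 to 3.92 with 1 pool left out, 0.34 without Runx1::Runx1t1 replicate 1. The NKT17-like share ranged from 0.11 to 1.94.

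Counts of called genes were 2631 for iNKT against other T cells when the others had no Cd8a or Cd8b1 UMI, where Cd8a (10.99) and Cd8b1 (12.2) turned sign by construction. DESeq2 called 1554 in the Klrb1c+ comparison, 31 between groups and 152 in the interaction. The group fit gave 248 calls without the filter on low counts, and the interaction gave 161 with 1 cell per clonotype. With 1 pool left out, calls ranged from 3196 to 3850, from 2164 to 2612, from 82 to 164 (164 without control replicate 1) and from 280 (without control replicate 2) to 561. In group fits the lone pool is assumed to vary like the others. Of the 20 genes named between groups, Cpa3, Ctla4, Capg, Lyz2 and Lars2 passed in all alternatives. Chil3 was not among the genes called without cells holding 2 or more myeloid UMIs. The other 14 were lost in at least 1 alternative, for example Gzmb by DESeq2 and Eomes with 1 cell per clonotype. The 40 genes named in the iNKT comparisons were never lost. The cause of these changes was not tested.

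With the replicate number as a block, the group fit called 63 genes. The numbers share no stated origin, and the deviations of same-numbered pools correlated with r = 0.171 over 9811 genes, across genes that are not independent, so they were not taken as pairs.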

Other observations

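In Runx1::Runx1t1 replicate 1 a single iNKT cell barcode held 489 of the 493 UMIs of the hemoglobin gene Hbb-bs in that pool, and the interaction of 4.41 for Hbb-bs rests on it. Ighm UMIs, the heavy chain of IgM, summed to 165, 182, 188 and 194 CPM in iNKT cells of the 4 pools and to 109, 108, 150 and 128 CPM in other T cells, while Ms4a1, which encodes CD20, was at 0 in iNKT cells.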
